A study of Mus musculus with 4 samples.

Results

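The epidermal growth factor (EGF) receptor family was followed through 10 genes: the receptor genes Egfr, Erbb2 and Erbb3, the ligand genes Tgfa, Areg, Ereg, Hbegf, Btc and Epgn, and Errfi1, whose product inhibits the receptor. They were matched by symbol, and all 10 were found among the 13422 genes of the deposited table. RNA came from AML12, an established mouse hepatocyte line of the CD-1 strain, at the passages given as 3-5 in the labels. There were 2 libraries (replicates 1 and 2) of cells transfected with PAV-TBG-P2A-GFP-Chrna4, a plasmid carrying Chrna4, and 2 libraries (replicates 1 and 3) of cells transfected with pCMV6-AC-GFP, the GFP control plasmid. TBG names a promoter active in hepatocytes and CMV one active in most cells, so promoter and insert differ together between the plasmids. Both groups grew in medium with insulin, transferrin, selenium, dexamethasone and serum. Nothing in the labels ties a replicate to its own culture or transfection, and the p-values therefore reflect the spread between libraries, which could be technical. AML12 was established from mice carrying a human TGFA transgene, and reads of such a transcript that align to the mouse gene cannot be told apart from those of mouse Tgfa.

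The ligands of this family are made as membrane proteins and released by proteases of the ADAM group. Tgfa, Areg and Epgn encode ligands that bind the EGF receptor, and Ereg, Hbegf and Btc encode ligands that bind both it and ERBB4. A bound receptor pairs with another EGF receptor or with ERBB2, which has no known ligand of its own, and signals through RAS to the kinases MEK and ERK. ERBB3 binds neuregulins and depends on a partner for most of its kinase activity. Errfi1 encodes a protein, also called MIG6, that is induced by the pathway and binds the kinase domain of the EGF receptor to shut it off. In liver, EGF receptor signalling is known for its part in hepatocyte proliferation and regeneration.

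Reads on listed genes numbered from 31301396 to 32228360 per library, and 1 read was worth 0.0308 to 0.0325 CPM, the read count relative to a scaled library size. Chrna4 stood at 87.1 and 72.5 CPM in the Chrna4 libraries, against 0.0308 and 0.0927 CPM in the control libraries. Of 13 hepatocyte markers 7 were listed. Apob and Hnf4a were well above 1 CPM in every library, Apoa1 and Serpina1a were under 1 CPM in every library, and Apoa2, Tat, Cyp2e1, Cps1, Fgb and Tf were not listed. Alb stood at 7.93 and 8.51 CPM in the Chrna4 libraries, against 17.8 and 19.0 CPM in the control libraries, and Ttr at 28.02 and 23.8 CPM in Chrna4, against 58.2 and 48.3 CPM in control. Both were lower in the Chrna4 libraries, and their part in the results was not tested. Summed hepatocyte markers lay at 1528 and 1608 CPM in the Chrna4 libraries and at 1467 and 1617 CPM in the control libraries, a sum made up mostly of Apob (1244 and 1323 CPM in Chrna4, 1132 and 1269 CPM in control). Summed markers of macrophages (2 of 7 listed) were at 3.77 to 4.40 CPM in Chrna4 and 4.45 to 5.27 CPM in control libraries. Those of endothelial cells (1 of 6 listed) and of stellate cells or fibroblasts (1 of 6 listed) were at or below 0.358 CPM in every library. Summed bile duct markers (5 of 6 listed, with Epcam not listed) were at 633 and 608 CPM in the Chrna4 libraries, against 813 and 876 CPM in the control libraries, and their part in the results below was not tested. The control pair differed more than the Chrna4 pair, at a chi-square per gene that averaged 4.04 between the Chrna4 libraries and 13.6 between the control libraries. Fewer cells making a transcript and less of it per cell cannot be told apart in these bulk libraries.

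The family was higher in part and by small amounts. Of the 8 members with a mean of at least 1 CPM, which were the ones tested, 4 rose in the Chrna4 libraries (Egfr, Ereg, Btc and Errfi1) and 0 fell, at an adjusted p under 0.05 by limma on log2(CPM + 1). Of all 11298 tested genes, 9.26% were called higher and 6.66% lower. At an unadjusted p under 0.05 the members numbered 6 higher and 0 lower by limma. The shares of all tested genes given above are for adjusted p and are no background for that count. By adjusted p, edgeR and DESeq2 on recovered reads also called 4 higher and 0 lower. Of the 11298 tested genes edgeR called 1034 higher and 768 lower, and DESeq2 called 970 higher and 614 lower. The median log2 change of the 8 members was 0.27, against -0.0028 over all genes tested. For 6 of the 8 both Chrna4 libraries lay above both control libraries, a pattern that 28.7% of tested genes showed. For 1, Tgfa, both lay below, as for 28.8% of tested genes. In the authors' deposited table there were 5 members with an adjusted p under 0.05 and a higher level in Chrna4, the same 4 and Areg. That count comes from another test, for which the limma shares of all tested genes do not hold.

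The promoters of Areg, Errfi1, Egfr and Btc are shown for 3 called members and for Areg, which was not called, because Areg and Errfi1 hold the same pair of elements (a choice made after the sequences were searched). Each line gives the 150 bases before the RefSeq transcript start on the gene's own strand (GRCm38.p6), with capitals marking matches to a cyclic AMP response element (CRE, TGACGTCA) or a TATA element (TATAAA). The stretches are chr5:91139449-91139598 (plus strand) for Areg, chr4:150854920-150855069 (plus) for the downstream of 2 Errfi1 starts, chr11:16752053-16752202 (plus) for Egfr and chr5:91402995-91403144 (minus) for Btc.
Areg: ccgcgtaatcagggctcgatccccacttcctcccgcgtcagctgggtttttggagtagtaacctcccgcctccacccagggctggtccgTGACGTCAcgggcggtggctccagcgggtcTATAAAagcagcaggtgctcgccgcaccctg
Errfi1: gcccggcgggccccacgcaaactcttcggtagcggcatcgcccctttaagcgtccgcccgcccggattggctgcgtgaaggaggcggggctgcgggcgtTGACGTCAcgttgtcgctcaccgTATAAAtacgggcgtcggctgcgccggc
Egfr: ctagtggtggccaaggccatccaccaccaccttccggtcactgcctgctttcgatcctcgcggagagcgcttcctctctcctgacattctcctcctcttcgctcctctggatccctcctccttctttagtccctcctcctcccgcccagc
Btc: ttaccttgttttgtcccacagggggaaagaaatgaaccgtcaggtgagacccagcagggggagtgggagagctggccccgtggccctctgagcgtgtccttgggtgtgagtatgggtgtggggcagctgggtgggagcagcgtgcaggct

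In the Areg promoter the CRE match lay at bases -61 to -54 before the start and the TATA match at -31 to -26. In the Errfi1 promoter the CRE match lay at -51 to -44 and the TATA match at -28 to -23. The window before the upstream Errfi1 start held neither. RefSeq windows were matched for 7 of the 10 members, with 8 windows in all, and 250 bases before each start were searched on both strands. The CRE letters were in 2 of these 8 windows and in 1.55% of all 32851 promoter windows. The TATA letters were in 3 (Areg, Errfi1 and Epgn) and in 12.4% of all windows, and a GC box (GGGCGG) in 4 (Areg, Errfi1, Egfr and Tgfa) and in 32.7%. The letters of an AP-1 site (TGANTCA), a STAT site (TTCNNNGAA), an interferon-stimulated response element and the NF-kB consensus were in 0 of the 8 windows, and in 6.75%, 7.02%, 2.98% and 7.25% of all windows in the same order. No 2 of the matches printed here in capitals overlapped.

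Egfr, the receptor that binds all 6 ligands, rose by 22.6% in mean CPM (ENSMUSG00000020122; GRCm38 chromosome 11, 16752203 to 16918158, plus strand, protein-coding). It stood at 208 and 224 CPM in the Chrna4 libraries, against 164 and 189 CPM in the control libraries. The groups did not overlap, and the lower Chrna4 library exceeded the higher control library by 0.14 on the log2 scale. The log2 change was 0.30 (SE 0.07, adjusted p = 0.0165 by limma). Egfr had more reads than any other member, 5312 to 7073 per library. The call was lost without Chrna4 replicate 2 (log2 0.24, adjusted p = 0.189 by limma), and the log2 change was 0.19 without control replicate 1.

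Erbb2, the partner receptor with no known ligand, overlapped between the groups (ENSMUSG00000062312; chromosome 11, 98412470 to 98437716, plus strand). It stood at 68.0 and 71.9 CPM in the Chrna4 libraries and at 66.9 and 71.7 CPM in the control libraries. The log2 difference was 0.01, with a 95% interval of -0.14 to 0.17 (adjusted p = 0.920 by limma). That interval leaves room for a change in either direction, and the difference was -0.04 with library totals as the scaling.
Both receptor genes lie on chromosome 11 but far apart. Per kilobase of exon, Egfr was 1.41 and 1.43 times the level of Erbb2 in the Chrna4 libraries, against 1.12 and 1.21 times in the control libraries. The ratio was thus higher in both Chrna4 libraries.

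Erbb3, the neuregulin receptor, was near the limit of detection (ENSMUSG00000018166; chromosome 10, 128567523 to 128589652, minus strand). It received 8 and 2 reads in the Chrna4 libraries and 0 and 1 reads in the control libraries, and was below the level needed for a test. Summed reads, scaled for library size, gave a ratio of 10.4 (exact 95% interval 1.48 to 451, counting error only). Chrna4 replicate 1 decided that value, as the ratio without it was 4.1 (0.214 to 242). In the control library with 0 reads a count of 3 reads or fewer could have gone unseen.

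**Figure D1:**
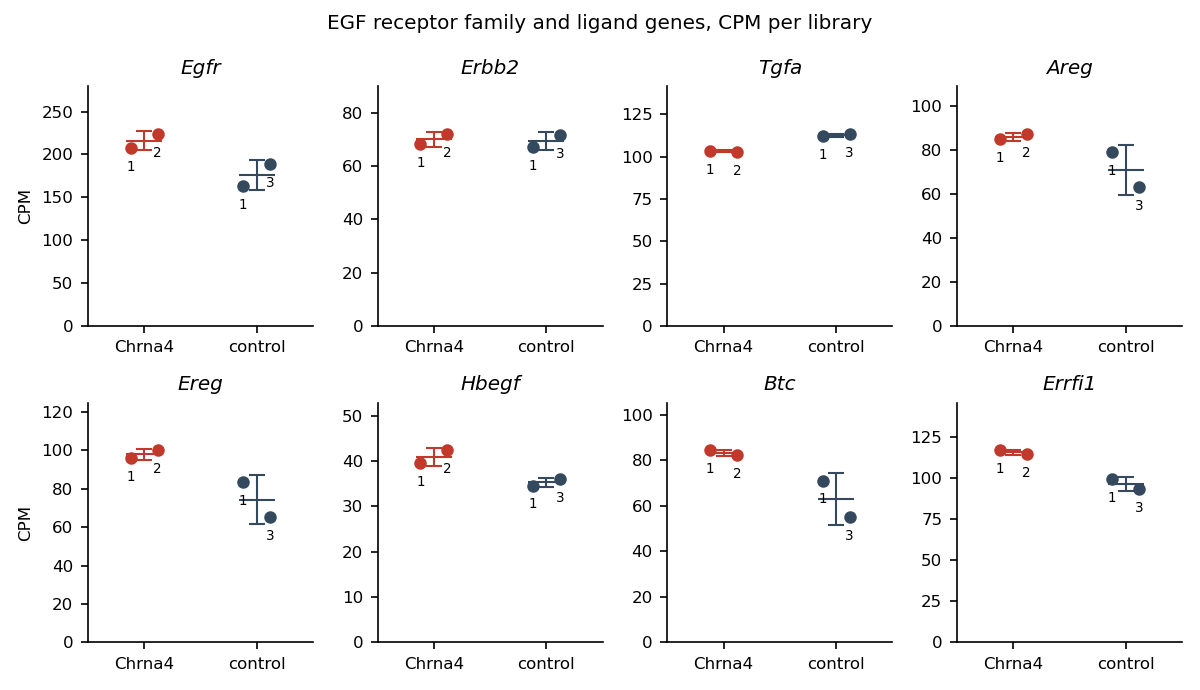
CPM of the 8 tested members in each library, with Chrna4 left of control; points are libraries labelled by replicate number, horizontal bars are group means and whiskers are SDs (n = 2). Ereg, Btc and Areg show wide gaps between control replicates 1 and 3, while Erbb2 overlaps and Tgfa lies lower in both Chrna4 libraries.

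Among the ligands, Ereg and Btc rose. Ereg, which encodes epiregulin, stood at 95.7 and 99.9 CPM in the Chrna4 libraries, against 83.5 and 65.3 CPM in the control libraries (ENSMUSG00000029377; chromosome 5, 91074622 to 91093646, plus strand). Both Chrna4 libraries were above both control libraries. The means were 97.8 ± 2.92 CPM in Chrna4 and 74.4 ± 12.9 CPM in control (SD, n = 2 each), a log2 change of 0.40 (SE 0.10, adjusted p = 0.0147 by limma). The annotated antisense gene Gm19610 shares 141 of 4128 exon bases with Ereg, and the sources used here do not state if reads were counted by strand.

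Btc, which encodes betacellulin, stood at 84.2 and 82.4 CPM in the Chrna4 libraries, against 71.0 and 54.9 CPM in the control libraries (ENSMUSG00000082361; chromosome 5, 91357261 to 91402994, minus strand). The groups again did not overlap. The means were 83.3 ± 1.30 CPM in Chrna4 and 63.0 ± 11.4 CPM in control, a log2 change of 0.41 (SE 0.10, adjusted p = 0.0156 by limma). Its fold was the largest among the 8 tested members, with Ereg next at nearly the same size. Ereg and Btc stayed past the threshold of 0.05 with any 1 library left out. In such fits the lone library is assumed to vary like the other group's pair. The size also depended on which control was used. It was 0.58 for Ereg and 0.59 for Btc without control replicate 1, and 0.23 for both without control replicate 3.

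Areg, which encodes amphiregulin, a ligand induced in regenerating liver, was higher in both Chrna4 libraries but did not pass the test (ENSMUSG00000029378; chromosome 5, 91139599 to 91148432, plus strand). It stood at 84.9 and 87.4 CPM in the Chrna4 libraries, against 79.2 and 63.1 CPM in the control libraries. The log2 difference was 0.28 (SE 0.09, 95% interval 0.08 to 0.48, adjusted p = 0.0604 by limma). In the authors' deposited table its log2 fold change, turned to Chrna4 over control, was 0.28 with an adjusted p of 0.0376. Without control replicate 1 the log2 difference was 0.44, and without control replicate 3 it was 0.12. The gene's own spread in such a fit comes from the Chrna4 pair alone, and not from the gap between the controls.

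Control replicate 1 exceeded control replicate 3 by 0.35 (Ereg), 0.37 (Btc) and 0.32 (Areg) on the log2(CPM + 1) scale. Those gaps were close to the differences between the groups. The Chrna4 libraries differed by at most 0.06 in these 3 genes. Egfr ran the other way between the controls, with replicate 1 lower than replicate 3 by 0.20. The part of this control gap in the group differences was not tested beyond leaving out each library.

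Hbegf encodes heparin-binding EGF-like growth factor (ENSMUSG00000024486; chromosome 18, 36504927 to 36515805, minus strand). It stood at 39.5 and 42.4 CPM in the Chrna4 libraries, against 34.6 and 36.0 CPM in the control libraries. The groups did not overlap, but the difference did not pass (log2 0.21, 95% interval 0.03 to 0.38, adjusted p = 0.104 by limma). Without control replicate 3 the log2 difference was 0.23.

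Tgfa, which encodes transforming growth factor alpha, was the member that lay lower in both Chrna4 libraries (ENSMUSG00000029999; chromosome 6, 86195223 to 86275719, plus strand). It stood at 104 and 103 CPM in the Chrna4 libraries, against 112 and 113 CPM in the control libraries. Replicates were close in both groups. The log2 difference was -0.13 (95% interval -0.26 to 0.0042, adjusted p = 0.186 by limma), so it was not called, and it lay between -0.13 and -0.12 with any 1 library left out.

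Epgn, which encodes epigen, was barely detected (ENSMUSG00000035020; chromosome 5, 91027464 to 91035215, plus strand). It received 1 and 12 reads in the Chrna4 libraries and 3 and 11 reads in the control libraries. The ratio of summed reads was 0.966 (exact 95% interval 0.418 to 2.21), so a difference was not detectable at this depth.

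Errfi1, the receptor's inducible inhibitor, rose (ENSMUSG00000028967; chromosome 4, 150853919 to 150868892, plus strand). It stood at 117 and 115 CPM in the Chrna4 libraries, against 99.3 and 93.3 CPM in the control libraries. Both groups were tight and did not overlap, and the lowest Chrna4 library exceeded the highest control library by 0.20 on the log2 scale. The log2 change was 0.26 (SE 0.06, adjusted p = 0.0138 by limma), which is a 20.2% higher mean. The call was lost without Chrna4 replicate 1 (log2 0.25, adjusted p = 0.156) and without Chrna4 replicate 2 (log2 0.28, adjusted p = 0.107), although the change itself moved little.

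**Figure D2:**
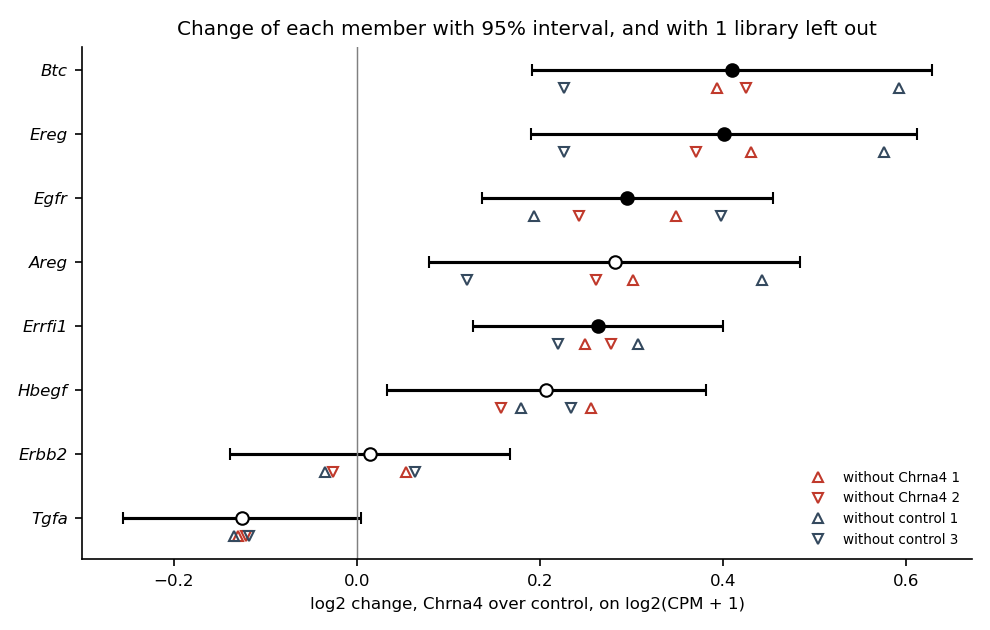
Change of each tested member, Chrna4 over control, on the log2(CPM + 1) scale, with 95% intervals from limma; filled circles are called, and triangles give the change with 1 library left out. Ereg, Btc and Areg move most with the control library left out, from 0.12 for Areg to 0.59 for Btc, whereas Tgfa stays between -0.13 and -0.12.

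Levels were compared between genes per kilobase of annotated exon, since CPM grows with transcript length. Areg was highest, at 70.9 ± 1.45 CPM per kilobase in Chrna4 and 58.6 ± 9.36 in control libraries (SD, n = 2 each). Errfi1 followed at 32.3 ± 0.463 and 26.9 ± 1.17, then Ereg at 23.7 ± 0.708 and 18.0 ± 3.12, again with Chrna4 first. In the control libraries Ereg (15.8 and 20.2), Tgfa (17.3 and 17.5), Egfr (14.4 and 16.6) and Btc (12.1 and 15.7) were neighbours whose ranges overlapped in part, and Btc also overlapped Erbb2 (12.8 and 13.8), so their order there is not firm. In the Chrna4 libraries Egfr (18.4 and 19.8) and Btc (18.2 and 18.6) overlapped, and Tgfa lay below both at 16.0 and 15.9. Erbb2, at 13.4 ± 0.535 in Chrna4 and 13.3 ± 0.646 in control, and Hbegf, at 8.47 ± 0.418 and 7.30 ± 0.202, were lower, and Epgn and Erbb3 lay under 1 CPM per kilobase in every library.

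**Figure D3:**
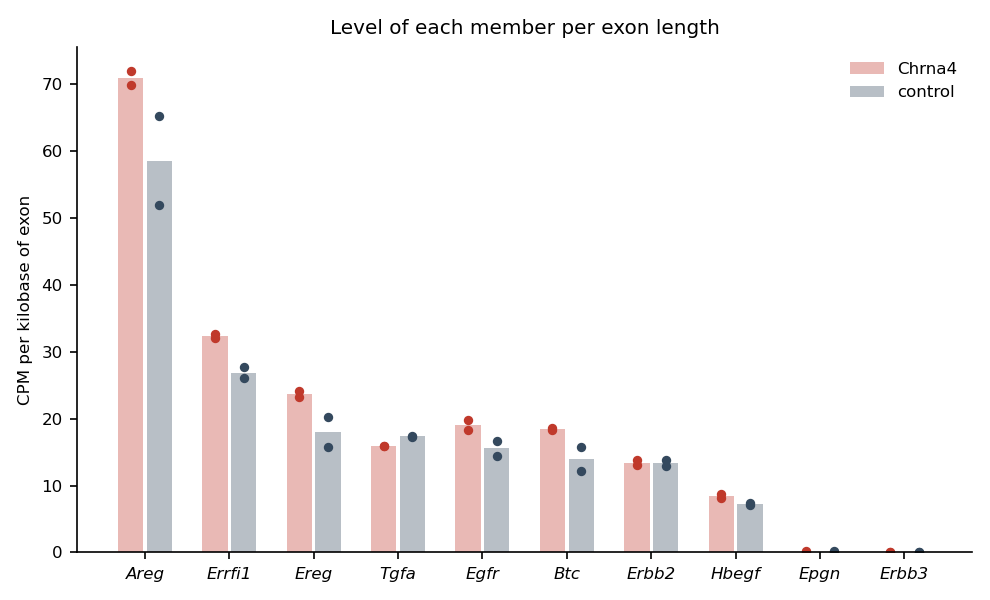
Level of each of the 10 members as CPM per kilobase of annotated exon, with bars from 0 for group means (Chrna4 left, control right) and points for libraries. Areg stands at 70.9 in Chrna4 and 58.6 in control, and Epgn and Erbb3 lie close to 0.

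Summed over the 6 ligands, the level was 136 and 139 CPM per kilobase in the Chrna4 libraries, against 126 and 105 in the control libraries. Areg made up 51.4% and 51.7% of that sum in Chrna4 and 51.9% and 49.5% in control, so its share overlapped between the groups. Tgfa made up 11.7% and 11.4% in Chrna4, against 13.8% and 16.6% in control. Btc made up 13.7% and 13.1% in Chrna4, against 12.5% and 11.6% in control, and Ereg 17.1% and 17.4%, against 16.1% and 15.1%. The Tgfa share was lower, and the Btc and Ereg shares higher, in both Chrna4 libraries than in both control libraries. These shares add to a whole, so a rise in some lowers the others.

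Of the 6 ligand genes, 4 are neighbours on chromosome 5. Epgn, Ereg, Areg and Btc lie within 376 kilobases (chromosome 5, 91027464 to 91402994), with no other protein-coding gene inside that span. In a window reaching 500 kilobases further on each side, 10 genes were tested, of which 6 rose and 0 fell by limma. Among all tested genes 9.26% were called higher and 6.66% lower. The 6 were Ereg, Btc and the CXC chemokine genes Cxcl1, Cxcl2, Cxcl3 and Cxcl5, whose products attract neutrophils. The window was drawn around the ligands, so Ereg and Btc repeat calls given above and are not calls among neighbours. The chemokines were chosen after their values were seen. Cxcl2 stood at 13.4 and 12.9 CPM in the Chrna4 libraries, against 2.46 and 3.00 CPM in the control libraries, a log2 change of 1.93. The log2 changes were 1.03 for Cxcl3, 0.93 for Cxcl5 and 0.87 for Cxcl1, each larger than those of the ligands. The gene between the chemokines and the ligands, Mthfd2l, was not called (log2 0.06, adjusted p = 0.833 by limma). Neither was Parm1, the gene beyond Btc (log2 0.02, adjusted p = 0.871 by limma). Rassf6, on the far side of the chemokines, was lower in both Chrna4 libraries but not called (log2 -0.14, adjusted p = 0.198 by limma).

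**Figure D4:**
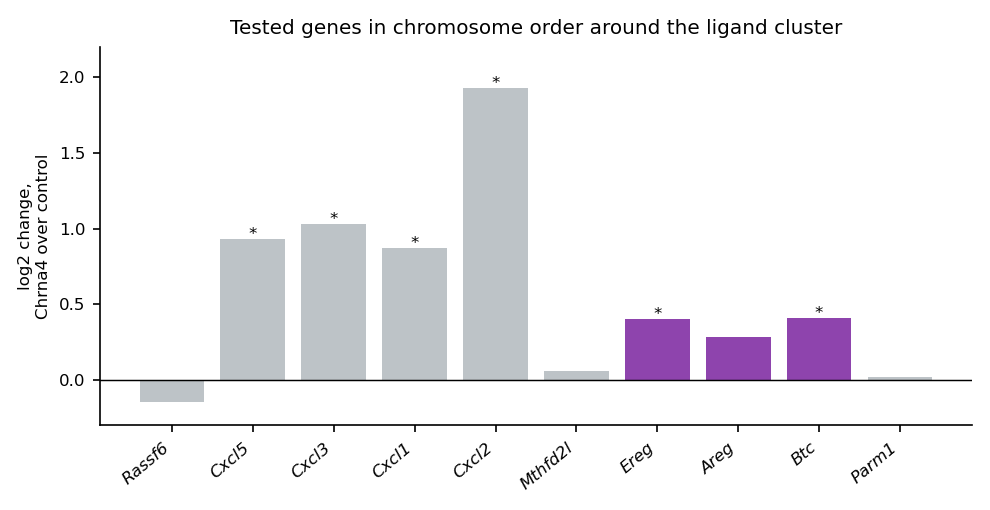
Log2 change, Chrna4 over control, of the 10 tested genes around the chromosome 5 ligand cluster, in chromosome order; purple bars are family members and asterisks mark an adjusted p under 0.05. The chemokine genes reach 1.93 (Cxcl2), the ligands lie between 0.28 and 0.41, Mthfd2l and Parm1 are near 0, and Rassf6 is at -0.14.

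The tested genes whose profile over the 4 libraries was most like that of Btc, the called member of largest change, were Fam69a, Ccdc23 and Car13. Their root mean square distances from Btc in centred log2(CPM + 1) were 0.023, 0.027 and 0.028. Ereg, at 0.033, was the 8th nearest of all tested genes and Areg, at 0.071, the 63rd. Egfr (0.215) and Erbb2 (0.260) were further away, and Tgfa was furthest at 0.300.

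Other genes of the family gave no call. Egf itself received 33 and 11 reads in the Chrna4 libraries and 35 and 12 in the control libraries, under 1 CPM on average. Nrg1, a neuregulin gene whose product binds ERBB3 and ERBB4, stood at 58.4 and 68.3 CPM in the Chrna4 libraries and at 50.9 and 62.8 CPM in the control libraries, which overlapped (log2 0.16, 95% interval -0.07 to 0.38, adjusted p = 0.340 by limma). Nrg4 stood at 1.72 and 1.33 CPM in Chrna4 and at 2.00 and 1.73 CPM in control (adjusted p = 0.598 by limma). Nrg2 received 3 and 5 reads in Chrna4 and 4 and 12 in control libraries. Erbb4, the other neuregulin receptor gene, and Nrg3 were not listed.

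Genes that release ligands from the membrane, or restrain that release, had a small median change but moved in both directions. Of 13 tested, 2 rose and 1 fell (median log2 0.08, against -0.0028 over all genes). The share called was 23.1%, against 15.9% of all tested genes in either direction. In 7 both Chrna4 libraries lay above both control libraries and in 5 below, as for 28.7% and 28.8% of all tested genes. Rhbdf2, which encodes iRhom2, a carrier that brings the protease ADAM17 to the surface, stood at 128 and 128 CPM in the Chrna4 libraries, against 88.1 and 99.8 CPM in the control libraries (log2 0.44, SE 0.07, adjusted p = 0.00104 by limma). Timp2, a metalloprotease inhibitor gene, stood at 489 and 467 CPM in Chrna4, against 339 and 379 CPM in control (log2 0.41, SE 0.06, adjusted p = 0.000910 by limma). Both rose in each fit with 1 library left out. Bace1, a membrane protease gene, fell (80.2 ± 1.58 CPM in Chrna4, 97.8 ± 4.96 CPM in control), a call lost without Chrna4 replicate 1 (adjusted p = 0.0685 by limma) and without Chrna4 replicate 2 (adjusted p = 0.142). Without control replicate 3 more genes were called, both in this list and among all tested genes.

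Of 25 tested genes that restrain or sort the receptor, 3 rose and 1 fell (median log2 0.08). The share called, 16.0%, was at the 15.9% of all tested genes. Ptprj, a receptor-type phosphatase gene, averaged 65.8 ± 1.17 CPM in Chrna4 and 47.6 ± 1.22 CPM in control (log2 0.46, SE 0.07, adjusted p = 0.000757 by limma). Lrig1, which encodes a membrane protein that promotes turnover of the EGF receptor, averaged 95.6 ± 1.62 CPM in Chrna4 and 74.7 ± 1.90 CPM in control (log2 0.35, SE 0.06, adjusted p = 0.00261 by limma). Both were called with any 1 library left out. Ptpn2, a phosphatase gene, rose (43.0 ± 0.529 CPM in Chrna4, 35.3 ± 0.332 in control), a call lost without Chrna4 replicate 1 (adjusted p = 0.153 by limma), without Chrna4 replicate 2 (0.222) and with library totals as the scaling (0.0641). Spry1, a feedback inhibitor gene of ERK signalling, fell (5.10 ± 1.20 CPM in Chrna4, 7.80 ± 0.113 in control), a call lost without Chrna4 replicate 1 (log2 -0.34, adjusted p = 0.335 by limma), with DESeq2 (0.0694) and with no filter on low values (0.0503). Fewer genes of the list were called without Chrna4 replicate 1 and more without control replicate 3, and the same held among all tested genes.

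Of 36 tested adaptor and cascade genes, 3 rose and 4 fell (median log2 0.01). The share called was 19.4%, near the 15.9% of all tested genes. Those that fell were Pik3r2, a regulatory subunit gene of PI3 kinase (63.7 ± 1.54 CPM in Chrna4, 85.3 ± 2.71 in control), Mapk3, which encodes ERK1 (128 ± 2.02 and 160 ± 7.09), Plcg1, a phospholipase gene (55.9 ± 1.22 and 72.1 ± 5.99), and Grb7, an adaptor gene (53.9 ± 1.04 and 67.7 ± 5.39). Their log2 changes ran from -0.42 to -0.32, with adjusted p from 0.00108 to 0.0131 by limma. The call of Mapk3 was lost without Chrna4 replicate 1 (adjusted p = 0.0501 by limma) and that of Grb7 without Chrna4 replicate 2 (0.102). Src, Map2k1, which encodes the kinase MEK1, and Stat3 rose, each by a log2 of 0.23 (chosen after their values were seen). These 3 calls were lost without Chrna4 replicate 1, without Chrna4 replicate 2 and with library totals as the scaling, where 0 adaptor and cascade genes were higher and 4 lower and the median was -0.04. The list had 3 called genes without either Chrna4 replicate.

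Of 10 genes used as a readout of ERK activity, 2 rose and 0 fell (median log2 0.10; 3 higher and 0 lower at an unadjusted p under 0.05 by limma, with 2 and 0 called by edgeR and by DESeq2). That was 2 called genes of 10, where 15.9% of all tested genes were called and 9.26% were called higher. These shares are for adjusted p and are no background for the unadjusted count. Spry2 and Spry4 were counted here and also among the receptor restraint genes, and neither was called. The related gene Spry1, which was called lower (log2 -0.54), was counted only among the restraint genes. The count of falls here thus depends on how the lists were drawn. Phlda1 averaged 83.4 ± 2.05 CPM in Chrna4 and 70.3 ± 1.56 CPM in control (log2 0.24, SE 0.06, adjusted p = 0.0242 by limma). Epha2, an ephrin receptor gene, averaged 295 ± 0.793 CPM in Chrna4 and 256 ± 13.8 CPM in control (log2 0.21, SE 0.06, adjusted p = 0.0329 by limma). Both calls were lost without Chrna4 replicate 1 (adjusted p = 0.248 and 0.257), without Chrna4 replicate 2 (0.138 and 0.294) and with library totals (0.0651 and 0.103).

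Of 13 tested genes on a list of receptor tyrosine kinases outside the family, 2 rose and 6 fell (median log2 -0.11). Among all tested genes 9.26% were called higher and 6.66% lower. Epha2 and Epha4 encode such kinases too but were counted under ERK output. Their log2 differences were 0.21 (Epha2, called higher) and 0.17 (Epha4, not called). The split of the 13 was not tested. It was 5 higher and 6 lower without control replicate 3, and 2 higher and 3 lower without Chrna4 replicate 2. Calls among all tested genes also rose without control replicate 3 and fell without Chrna4 replicate 2. The fibroblast growth factor receptor genes Fgfr2 (39.5 ± 0.132 CPM in Chrna4, 67.5 ± 1.92 in control), Fgfr3 and Fgfr4 (33.5 ± 3.59 and 55.9 ± 6.26) fell by 0.76, 1.01 and 0.72 on the log2 scale. Axl, a receptor gene for the ligand GAS6, rose (1498 ± 41.5 CPM in Chrna4, 1097 ± 47.9 in control, log2 0.45, adjusted p = 0.000293 by limma). These 4 were called with any 1 library left out. The others, chosen after their values were seen, were Flt1, Ephb4 and Insr, which fell, and Ror1, which rose. Their calls were lost without Chrna4 replicate 2 for Flt1 (adjusted p = 0.105 by limma), Ephb4 (0.396) and Insr (0.0538), and without Chrna4 replicate 1 for Insr (0.248) and Ror1 (0.248). The direction of Egfr and that of the fibroblast growth factor receptors thus differed, and this difference was not tested.

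**Figure D5:**
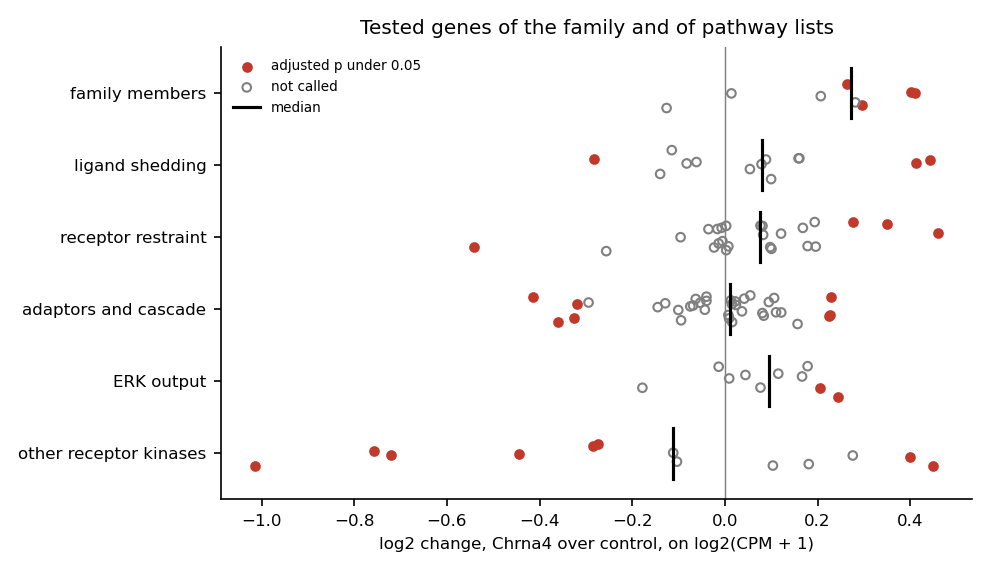
Log2 change, Chrna4 over control, of each tested gene of the family (8) and of lists for ligand shedding (13), receptor restraint (25), adaptors and cascade (36), ERK output (10) and other receptor kinases (13); filled points have an adjusted p under 0.05 and vertical bars are medians. The family median is 0.27 and that of the other receptor kinases -0.11.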

How the data were processed

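RNA of 4 AML12 libraries was measured by polyA-selected sequencing. TopHat2, HTSeq and mm10/GRCm38 are named in the submitters' processing notes, without versions, settings or roles. Per the file headers the authors deposited 1 value per gene and library and their own comparison (log2 fold change, log2 mean CPM, p-value and adjusted p-value), made with a tool that the sources used here do not name. The deposited signal is CPM on a scaled library size: columns sum to 978506 to 1020157, and 100% of values in each column were whole multiples of 1 read within 0.01 reads. Scaling recomputed by TMM from those reads matched. The authors' log2 fold change, control over Chrna4 as deposited, was turned round.

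Members and gene lists were chosen with earlier results of these data known. The test was limma-trend (limma 3.58.1, R 4.3.3) on log2(CPM + 1), which understates changes of low genes, over the 11298 genes averaging 1 CPM or more, Benjamini-Hochberg adjusted, at a threshold of 0.05. Named genes are every member, up to 4 called genes of smallest adjusted p per pathway list, and the 3 profiles nearest to the called member of largest change. Alternatives were scaling by RLE factors or by library totals, a filter of 5 CPM or none, the pseudocount 0.1, leaving out each library, a threshold of 0.01, and edgeR 4.0.16 and DESeq2 1.42.0 on recovered reads. The fit was tested on simulated data. Exact 95% intervals cover counting error only, as reads carried no molecular identifiers. Coordinates and exon lengths are from GENCODE M21 (GRCm38), and promoter sequences are from RefSeq (GRCm38.p6).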

Additional observations from a re-analysis of the deposited data

How the results depend on the processing

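No paired analysis was possible because the groups share only replicate number 1. Of the 9 counts over genes and lists, each under 12 alternatives, 81 values lay within 1.5 times the reported count and 27 did not; the cause was not tested. With library totals, calls numbered 812 higher and 1179 lower (40.8% increases, against 58.2% as reported), 4 adaptor and cascade genes and 0 ERK output genes were called, and the log2 difference of Erbb2 was -0.039. With 1 library left out that of Erbb2 ran from -0.035 to 0.063. At an adjusted p under 0.01 there were 670 genes higher and 293 lower, 0 members higher, 2 receptor restraint, 3 adaptor and cascade, 0 ERK output and 5 other receptor kinase genes. With 1 library left out the number of members higher ran from 2 to 5 and of all genes from 604 to 1712 higher and 324 to 1296 lower. The called genes ran from 2 to 7 for ligand shedding, 2 to 7 for receptor restraint, 3 to 10 for adaptors and cascade, 0 to 3 for ERK output and 5 to 11 for the other receptor kinases. In such a fit the lone library is assumed to vary like the other group's pair. Ereg, Btc, Egfr and Errfi1 were called with both other scalings, with a filter of 5 CPM or none, with the pseudocount 0.1, and by edgeR and DESeq2.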

Other observations

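The low-level ligand genes Egf and Epgn split replicate 1 of each group from Chrna4 replicate 2 and control replicate 3. The groups were not split by plasmid in these genes, a pattern seen in the data and not tested. Egf stood at 1.07 CPM in Chrna4 replicate 1 and 0.348 CPM in Chrna4 replicate 2, and at 1.08 CPM in control replicate 1 and 0.371 CPM in control replicate 3. Epgn ran the other way, with 1 and 12 reads in Chrna4 replicates 1 and 2 and 3 and 11 reads in control replicates 1 and 3. Of the genes at higher levels, Erbb2 and Nrg1 split in the same way (chosen after their values were seen). Erbb2 was lower in replicate 1 of Chrna4 and of control (68.0 and 66.9 CPM) than in Chrna4 replicate 2 and control replicate 3 (71.9 and 71.7 CPM). So was Nrg1, at 58.4 and 50.9 CPM against 68.3 and 62.8 CPM in the same order. Of the 8 tested members, 6 lay higher and 1 lower in both Chrna4 libraries, and so did not split this way. The share of all tested genes with this split was not counted.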
